A study of Mus musculus with 5 samples.

Results

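The 9 genes described here are known from primordial germ cells (PGCs) and oocytes: Prdm14, Tfap2c, Dppa3, Nanos3, Kit, Dnd1, Ddx4, Dazl and Nlrp5. They are 9 of the 49671 genes in the deposited count table, found by symbol, and were chosen from the values that SO+ and SO− embryos had in earlier work on the same table, so that their differences between genotypes are given as a description without a test. RNA was sequenced from 2 SO+ embryos (WT; Sox2Cre-/-; Oct4 fl/+) and 3 SO− embryos (Sox2Cre+/-; Oct4 fl/-) on a mixed strain background, each library being the epiblast and visceral endoderm (VE) of a separate embryo at about E6.75 with the extra-embryonic ectoderm (ExE) removed. Sox2Cre is a transgene under the Sox2 promoter, so that deletion is largely a matter of the epiblast and not of the VE, and all 5 embryos carried a floxed Oct4 allele. The comparison addressed how transcript levels differ between embryos with and without Oct4. Counts are read counts per gene without molecular identifiers, given as CPM (counts scaled to a common library total), and every interval on a count covers counting error only.

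PGCs are the founders of eggs and sperm. In the mouse they are set aside from the posterior proximal epiblast, close to the ExE, when BMP signals induce the transcriptional regulators Prdm1, Prdm14 and Tfap2c. Dppa3, Nanos3, Kit and Dnd1 are associated with the young PGC, Ddx4 and Dazl are RNA regulators best known from germ cells that have reached the gonad, and Nlrp5 encodes a maternal effect protein of the oocyte. A few founder cells contribute little RNA to a sample of a whole epiblast, and in such samples fewer cells of a type cannot be told apart from less RNA per cell.

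Of the 9 genes, Nlrp5 had the widest separation between genotypes. It had 1 count in each SO+ embryo and 41, 5 and 28 counts in SO− embryos 1, 2 and 3. Prdm14 and Kit were also higher in each SO− embryo than in either SO+ embryo, and embryos of the 2 genotypes did not overlap in 29.5% of all genes tested. Tfap2c, Dnd1, Ddx4 and Dazl overlapped between genotypes, Dppa3 lay between 1.05 and 1.79 CPM in all 5 embryos, and Nanos3 was at the limit of detection in both genotypes.

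RefSeq promoter windows on GRCm38.p6, from 250 bases before a start site to 50 after it, were matched for 5 of the 9 genes. Nlrp5 is shown because it was nearly absent from SO+ embryos, and Ddx4 and Dazl because they are later germline genes whose levels overlapped between genotypes. Capitals mark CG dinucleotides, the usual target of DNA methylation. The windows are chr7:23385639-23385938 on the plus strand for Nlrp5, chr13:112652261-112652560 on the minus strand for Ddx4 and chr17:50293571-50293870 on the minus strand for Dazl.

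Nlrp5: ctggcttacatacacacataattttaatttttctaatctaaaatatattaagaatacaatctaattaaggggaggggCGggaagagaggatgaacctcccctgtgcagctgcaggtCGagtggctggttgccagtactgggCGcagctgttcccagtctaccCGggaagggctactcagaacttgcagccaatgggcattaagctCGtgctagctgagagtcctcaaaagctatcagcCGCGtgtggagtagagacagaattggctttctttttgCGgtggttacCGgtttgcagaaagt

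Ddx4: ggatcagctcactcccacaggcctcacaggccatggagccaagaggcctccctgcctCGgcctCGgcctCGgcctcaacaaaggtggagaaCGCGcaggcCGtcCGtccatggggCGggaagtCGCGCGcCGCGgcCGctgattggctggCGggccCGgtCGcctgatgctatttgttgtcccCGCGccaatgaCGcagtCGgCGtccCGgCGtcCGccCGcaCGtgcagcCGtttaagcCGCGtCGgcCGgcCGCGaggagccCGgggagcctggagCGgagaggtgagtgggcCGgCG

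Dazl: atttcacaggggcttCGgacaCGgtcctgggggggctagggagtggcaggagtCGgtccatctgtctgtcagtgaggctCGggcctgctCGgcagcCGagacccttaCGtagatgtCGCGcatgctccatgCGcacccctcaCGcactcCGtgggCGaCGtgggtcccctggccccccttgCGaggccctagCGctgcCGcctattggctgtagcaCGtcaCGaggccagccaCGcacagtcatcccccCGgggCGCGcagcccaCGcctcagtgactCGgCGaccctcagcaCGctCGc

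The Nlrp5 window shown, at the start of the annotated gene, held 9 CG dinucleotides, the Dazl window 28 and the Ddx4 window 38, against a median of 7 over 32851 promoter windows. At least as many were found in 45.8%, 14.2% and 4.95% of all windows. A further RefSeq start site of Nlrp5, with the window chr7:23403852-23404151, had 1 CG, and 94.6% of all windows had at least as many. The octamer ATGCAAAT, the motif that POU factors such as Oct4 bind, was searched on both strands and was in 0 of the 7 windows of the 5 genes, and in 1.74% of all windows. TCCCGC, a motif of the repressor E2F6, was in 4 of the 7 windows and in 20.0% of all windows. Of these 4, 2 are overlapping windows of Kit that hold the same sites, and the others are that of Ddx4 and the Nlrp5 window shown, while the further Nlrp5 window had no match. The E-box CACGTG was in 1 of the 7, that of Ddx4, and in 7.15% of all windows. These are matches of letters, and binding and methylation were not measured in these embryos.

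Library totals were 27538119 and 27047148 counts in SO+ embryos 1 and 2, and 4134617, 1117566 and 4191498 in SO− embryos 1, 2 and 3. The smallest level that 3 counts can show was therefore 0.109 and 0.111 CPM for the SO+ pair against 0.726, 2.68 and 0.716 CPM in the SO− embryos. Depth cannot be told apart from genotype here. The second index in the library names is the same in all SO− embryos and differs from that of both SO+ embryos. It cannot be told apart from genotype either. Pou5f1, which encodes Oct4, had 920.2 and 435.3 CPM in the SO+ pair against 27.8, 12.5 and 43.7 CPM in SO− embryos (log2 fold change −4.43, standard error 0.33, adjusted p = 3.94e-05 from edgeR, and 0.0639 with limma-voom). Summed over 12 epiblast markers, the level was 6740 and 5870 CPM in SO+ against 3591, 3203 and 4372 CPM in SO− embryos, and over 12 VE markers it was 3017 and 3416 CPM in SO+ against 4764, 4672 and 2961 CPM in SO− embryos. Without the 4 epiblast markers that edgeR called lower, the other 8 summed to 1733 and 1813 CPM in SO+ against 1639, 1612 and 1765 CPM in SO− embryos. That choice was made after seeing the data, and leaving out genes called lower narrows the gap by itself. All 12 markers of each tissue had counts in all 5 embryos. Of 10 ExE markers, 6 had counts in all 5 embryos, and the sum over the 10 was 14.5 and 18.6 CPM in SO+ against 30.2, 56.4 and 29.4 CPM in SO− embryos. Without Hand1, likewise chosen after seeing the data, it was 13.4 and 15.8 CPM in SO+ against 16.7, 32.2 and 17.4 CPM in SO− embryos. Of 11 markers of maternal tissue and blood, 8 were at 0 in all embryos, among them the leukocyte gene Ptprc and the decidual gene Prl8a2, and the sum over the 11 was at most 3.34 CPM in any embryo. The most abundant of the 11 were Pecam1, an endothelial gene with 0 to 2.86 CPM, and Cd74, with 0 to 1.22 CPM.

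**Figure D1:**
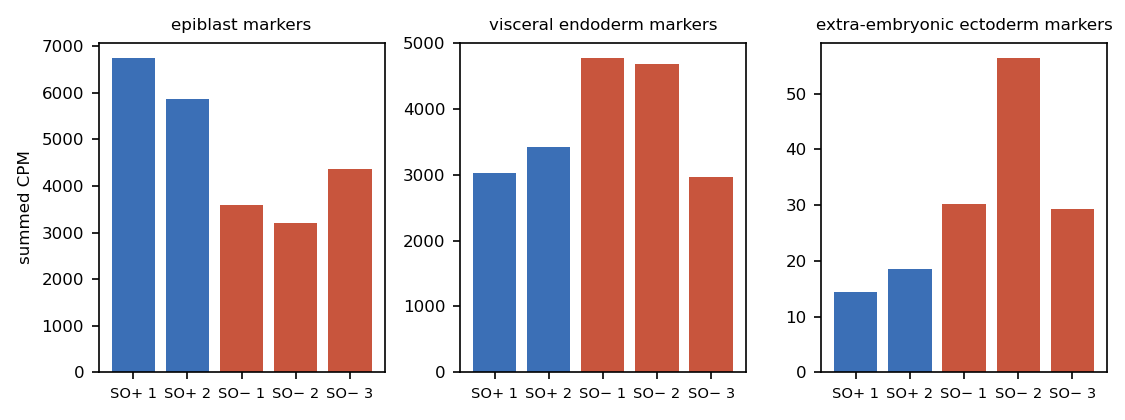
Bars give the summed CPM of 12 epiblast, 12 VE and 10 ExE marker genes in each embryo (blue, SO+; red, SO−), on axes that start at 0 and differ between panels. Epiblast sums were 3203 to 4372 CPM in SO− against 5870 and 6740 CPM in SO+, while SO− embryo 3 lay below both SO+ embryos for VE markers. The epiblast sum includes the 4 markers that edgeR called lower. Without them, a choice made after seeing the data, it was 1733 and 1813 CPM in SO+ against 1639, 1612 and 1765 CPM in SO−.

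Prdm14 and Tfap2c are regulators that act with Prdm1 in founding the germ line. Prdm14 (ENSMUSG00000042414) spans 13113457 to 13127163 on chromosome 1 of GRCm38. Its reads numbered 0 and 20 in SO+ embryos 1 and 2, against 18, 3 and 8 in SO− embryos 1, 2 and 3, which is 0 and 0.739 CPM against 4.35, 2.68 and 1.91 CPM. Every SO− embryo was thus above both SO+ embryos, and the nearest pair, SO+ embryo 2 and SO− embryo 3, differed 2.58-fold. At the pooled SO+ level, the SO− libraries would have held 1.51, 0.409 and 1.54 counts. The log2 fold change was 3.01 (standard error 1.11), and it was 2.01 without SO+ embryo 1, which had 0 counts, and 7.82 without SO+ embryo 2, which leaves a SO+ group at 0 counts and makes the size no bound. Prdm14 entered the fit through its SO− values alone, since SO− embryos 1 and 2 reached the 2.39 CPM that the filter asks of 2 libraries and neither SO+ embryo did. The ratio of pooled CPM was 8.38 (95% counting interval 4.58 to 15.6). That interval pools reads over embryos and leaves out the spread between embryos, which was wide here, with 0 and 20 counts in the SO+ pair. It therefore does not show a difference between genotypes.

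Tfap2c, an AP-2 factor that is also strongly expressed in ExE, had 66 and 123 counts in the SO+ pair against 21, 3 and 15 in SO− embryos. These were 2.40 and 4.55 CPM in SO+ against 5.08, 2.68 and 3.58 CPM in SO− embryos, so that the genotypes overlapped. Its log2 fold change was 0.20 (standard error 0.55) and turned to −0.19 without SO+ embryo 1. Beside it, the ExE genes Cdx2 and Elf5 also overlapped between genotypes: Cdx2 had 2.43 and 5.88 CPM in SO+ against 8.71, 7.16 and 2.39 CPM in SO− embryos. Elf5 had 3 and 5 counts in SO+ against 2, 0 and 11 counts in SO− embryos. Other ExE markers did not overlap. Hand1 had 1.09 and 2.74 CPM in SO+ against 13.5, 24.2 and 11.9 CPM in SO− embryos. Gata3 had 0.726 and 1.18 CPM against 2.66, 10.7 and 3.82 CPM, while Rhox9 had 5 and 14 counts in SO+ against 0 in each SO− embryo. Their part in the level of Tfap2c was not tested.

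**Figure D2:**
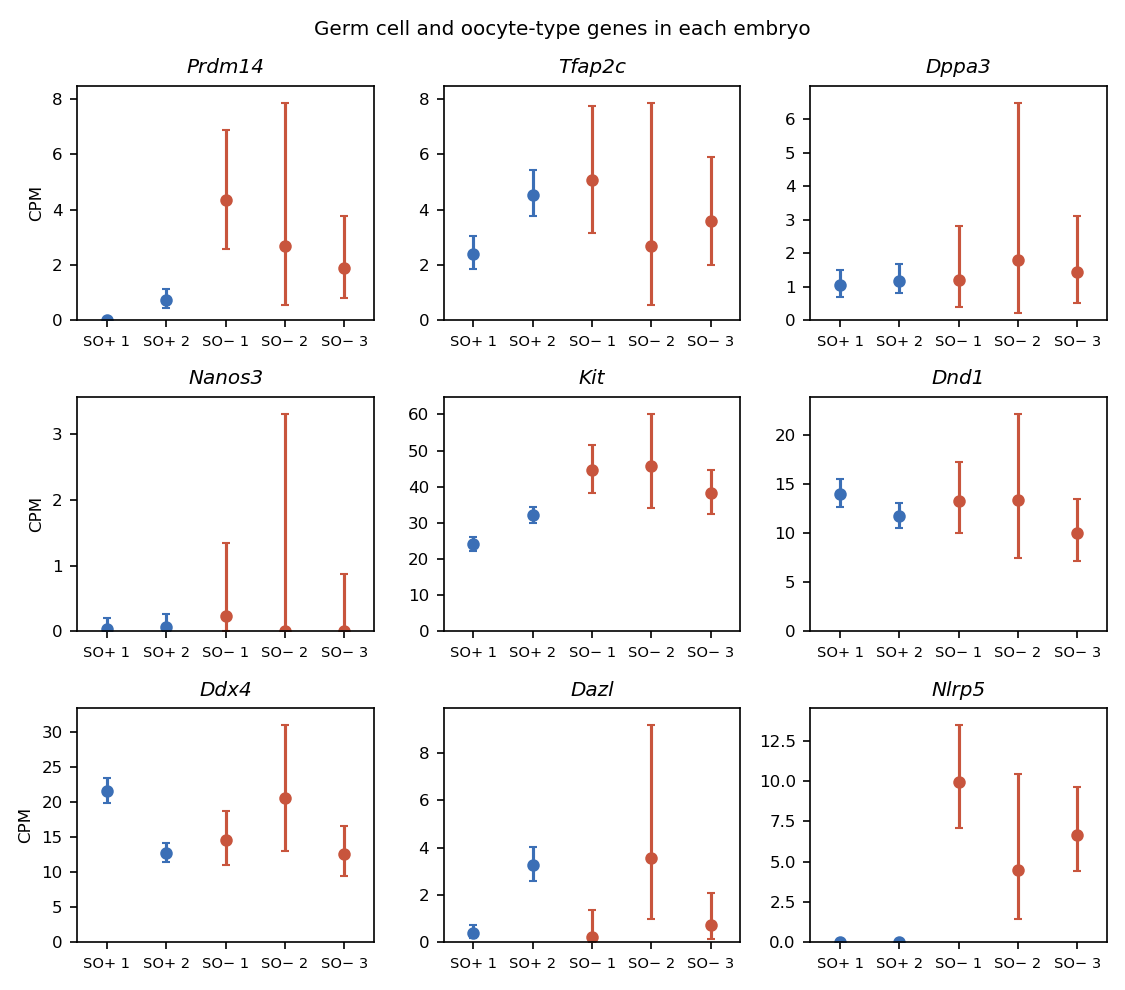
Each panel gives the CPM of a gene in the 5 embryos (blue, SO+; red, SO−), with bars for the 95% Poisson interval of the count, on axes that differ between panels. Nlrp5, Prdm14 and Kit were higher in all 3 SO− embryos, and SO− embryo 2, with a total of 1117566 counts, has the widest bars in every panel.

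Dppa3 (Stella), a maternal and germ cell protein that limits DNA demethylation in the zygote, had 29 and 32 counts in the SO+ pair against 5, 2 and 6 in SO− embryos. On the CPM scale these were 1.05 and 1.18 against 1.21, 1.79 and 1.43. The groups did not overlap, but the nearest pair differed only 1.02-fold, and the ratio of pooled CPM was 1.23 (95% counting interval 0.621 to 2.27). Equal expression would have given 4.62, 1.25 and 4.68 counts in the SO− libraries. Dppa3 did not pass the expression filter and has no fitted fold change.

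Nanos3, an RNA-binding protein that keeps PGCs alive, had 1 and 2 counts in the SO+ pair against 1, 0 and 0 counts in SO− embryos. Both groups were at or under 3 counts in sum, so that no fold is given. The SO+ level would have given 0.227, 0.0614 and 0.23 counts in the SO− libraries, and an absence in SO− embryos could not have been seen at that depth. In the 2 SO− libraries at 0, the upper 95% bounds were 3.30 CPM (embryo 2) and 0.880 CPM (embryo 3).

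Kit, the receptor tyrosine kinase that PGCs need to survive and migrate and that other cells also express, spans 75574916 to 75656722 on chromosome 5. There were 663 and 867 counts in the SO+ pair against 184, 51 and 160 in SO− embryos. This was 24.1 and 32.1 CPM in SO+ against 44.5, 45.6 and 38.2 CPM in SO− embryos, with means of 28.1 ± 5.64 CPM (SD, n = 2) and 42.8 ± 4.02 CPM (SD, n = 3). The groups did not overlap and their nearest embryos differed 1.19-fold, less than the 1.33-fold between the SO+ embryos. The log2 fold change was 0.60 (standard error 0.20) and ranged from 0.40 to 0.82 with each embryo left out. Kitl, which encodes the ligand of Kit, had 7.52 and 16.1 CPM in SO+ against 21.5, 25.9 and 16.7 CPM in SO− embryos (log2 fold change 0.82, standard error 0.34, adjusted p = 0.301 from edgeR), without overlap but without passing the test. It was 0.36 without SO+ embryo 1, and 1.47 without SO+ embryo 2, where it passed (adjusted p = 0.0224 from edgeR, the lowest of a range up to 0.879 with each embryo left out).

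Dnd1 encodes an RNA-binding protein that protects the transcripts of germ cells from microRNAs. There were 387 and 318 reads in the SO+ pair against 55, 15 and 42 in SO− embryos, or 14.1 and 11.8 CPM against 13.3, 13.4 and 10.02 CPM. The genotypes overlapped, with a log2 fold change of −0.09 (standard error 0.30). Dnd1 shares exon bases with Wdr55 on the other strand, and the use of strand in counting is not given in the sources used here, so its reads cannot be told apart from those of Wdr55. Wdr55 had 107 and 90.8 CPM in SO+ against 84.9, 97.5 and 108 CPM in SO− embryos, and Dnd1 had between 9.31% and 15.7% of its counts.

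Ddx4 and Dazl belong to the later germ line, Ddx4 (Vasa) as an RNA helicase of germ granules and Dazl as a translational regulator. Ddx4, on chromosome 13 from 112598333 to 112652475, had 594 and 346 counts in the SO+ pair against 60, 23 and 53 in SO− embryos. The levels were 21.6 and 12.8 CPM in SO+ against 14.5, 20.6 and 12.6 CPM in SO− embryos, so that a gene named for the gonadal germ line was read in every embryo of both genotypes. They overlapped, and the log2 fold change was −0.17 (standard error 0.31), turning to 0.25 without SO+ embryo 1.

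Dazl had 11 and 88 counts in the SO+ pair against 1, 4 and 3 counts in SO− embryos, or 0.399 and 3.25 CPM against 0.242, 3.58 and 0.716 CPM. The SO+ embryos differed 8.15-fold from each other and the SO− embryos 14.8-fold. The log2 fold change was −0.87 (standard error 1.11) and turned to 1.37 without SO+ embryo 2, which held most of the counts.

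Nlrp5 (Mater, ENSMUSG00000015721) encodes a protein of the oocyte's subcortical complex that early cleavage needs, and spans 23385889 to 23441922 on chromosome 7. Its levels were 0.0363 and 0.0370 CPM in the SO+ pair against 9.92, 4.47 and 6.68 CPM in SO− embryos. Each SO− embryo was above both SO+ embryos, and the SO− embryos differed 2.22-fold among themselves. The SO+ embryos, although more deeply sequenced, held 2 counts in sum, and their level would have given 0.151, 0.0409 and 0.154 counts in the SO− libraries, where 41, 5 and 28 were found. The ratio of pooled CPM was 214, with a 95% counting interval from 57.2 to 1799 that is wide because of the 2 counts. It too leaves out the spread between embryos. The fitted log2 fold change was 7.31 (standard error 0.87), between 6.99 and 7.55 with each embryo left out, and its size depends on how a near-absent group is treated.

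Reads over Nlrp5 did not come with reads over its neighbours. The nearest protein-coding genes on each side, Nlrp4e and Vmn1r167, had 0 counts in all 5 embryos, and the only annotated gene within its span, a microRNA, also had 0. The pseudogene Nlrp5-ps had 9 and 6 counts in the SO+ pair against 0, 0 and 1 in SO− embryos. Reads can be divided between near-identical copies, and how that was handled is not given in the sources used here. Of 21 genes whose symbol begins with Nlrp, 12 had no count in any embryo. Among the rest, Nlrp9b had 0 and 16 counts in the SO+ pair against 3, 1 and 14 in SO− embryos. Nlrp4c had 49 and 13 against 0, 1 and 19, and Nlrp12 had 472 and 423 against 51, 6 and 49. Nlrp4a was read in SO− embryo 3 alone, with 9 counts. Among the other genes of the subcortical complex, Ooep had 2.11 and 2.77 CPM in SO+ against 2.66, 4.47 and 2.62 CPM in SO− embryos (log2 fold change 0.31, standard error 0.59, adjusted p = 0.899 from edgeR). Tle6 had 4.43 and 1.85 CPM in SO+ against 2.18, 6.26 and 2.39 CPM in SO− embryos (log2 fold change −0.01, standard error 0.64, adjusted p = 0.999 from edgeR), and Khdc3 had 0 counts in all 5 embryos.

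A rule was modelled on the values of Nlrp5. It asked for at most 3 counts summed over the SO+ embryos and at least 3 in each SO− embryo. Of 49671 genes, 6 met it: Nlrp5, Sema3a, Usp18, Irf2, Rtp4 and Sprr2a3. These 6 are named here after their values were seen. Since 3 counts are 2.68 CPM in SO− embryo 2, genes at lower levels there could not meet the rule. The number therefore does not show how rare the pattern is. Rtp4, which interferon is known to induce, had 0 and 0 counts in SO+ against 20, 7 and 12 in SO− embryos. Usp18, an interferon-induced protease, had 0 and 0 against 21, 3 and 5 counts, and Sema3a, a guidance ligand, had 1 and 2 against 49, 6 and 56.

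**Figure D3:**
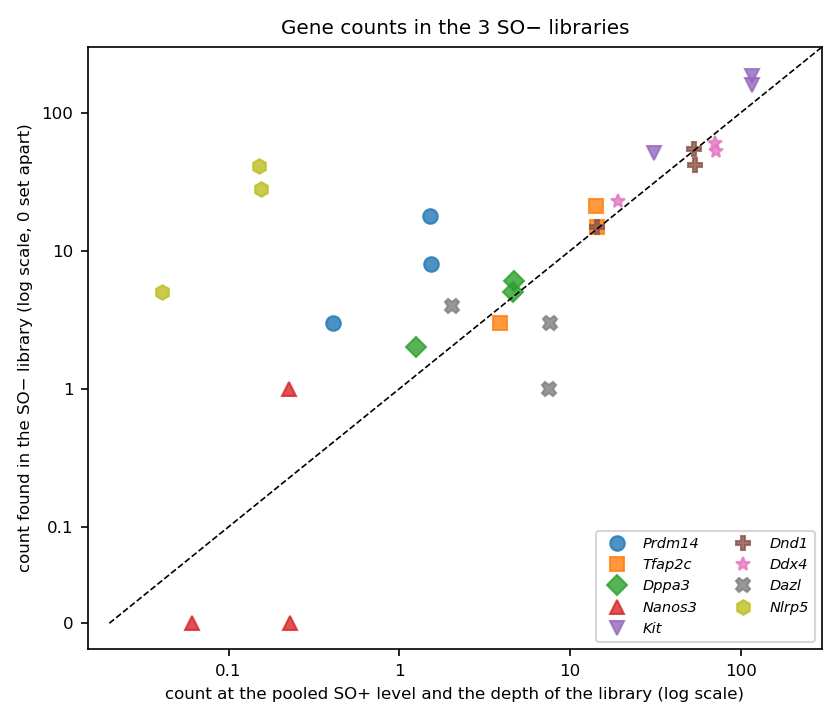
The x axis gives the count that each gene would have had in a SO− library at its pooled SO+ level, and the y axis the count found, both on log scales with 0 set apart; each symbol appears 3 times, for the 3 SO− libraries, and the dashed line marks equality. Nlrp5 (41, 5 and 28 found against 0.151, 0.0409 and 0.154) and Prdm14 lie far above the line, Kit lies just above it, and 2 of the 3 Dazl points lie below it.

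By count, 7 of the 9 genes passed the expression filter and 2 did not (Dppa3 and Nanos3). Nlrp5 and Prdm14 passed through their SO− values alone, and so had to differ. Of the 7, 4 were higher on average in SO− embryos and 3 lower. Groups did not overlap for 3 of the 7 (Prdm14, Kit and Nlrp5), against 29.5% of all 12067 genes tested. Nothing is read from these counts, because the contrast chose the genes.

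Levels between genes were compared as CPM per kilobase of exon. In SO+ embryos the order was Ddx4 (5.70 ± 2.06, SD, n = 2), Dnd1 (5.35 ± 0.67), Kit (3.15 ± 0.63), Dppa3 (1.25 ± 0.10), Tfap2c (0.944 ± 0.41), Dazl (0.478 ± 0.53), Prdm14 (0.144 ± 0.20), Nanos3 (0.0597 ± 0.03) and Nlrp5 (0.00756). Ddx4 and Dnd1 differed by less than their spread, as did Dppa3 and Tfap2c, Tfap2c and Dazl, Dazl and Prdm14, and Prdm14 and Nanos3. In SO− embryos the same 4 genes led, Ddx4 (5.28 ± 1.38, SD, n = 3), Dnd1 (5.08 ± 0.80), Kit (4.28 to 5.12) and Dppa3 (1.66 ± 0.33), with the first 3 within their spread. Nlrp5 was in the fifth place (1.45 ± 0.56), before Prdm14 (1.16 ± 0.49) and Tfap2c (1.03 ± 0.33), and in the ninth place in SO+ embryos. Among SO− embryos, Nlrp5, Prdm14 and Tfap2c differed by less than their spread, as did Dppa3 and Nlrp5. With the longest transcript as the length in place of all exon bases, the SO− order was Kit (8.16 ± 0.77), Dnd1 (5.95 ± 0.94), Ddx4 (5.28 ± 1.38), Nlrp5 (2.00 ± 0.78) and Dppa3 (1.77 ± 0.35). Kit then led by more than the spread, and Nlrp5 came before Dppa3 by less than the spread.

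**Figure D4:**
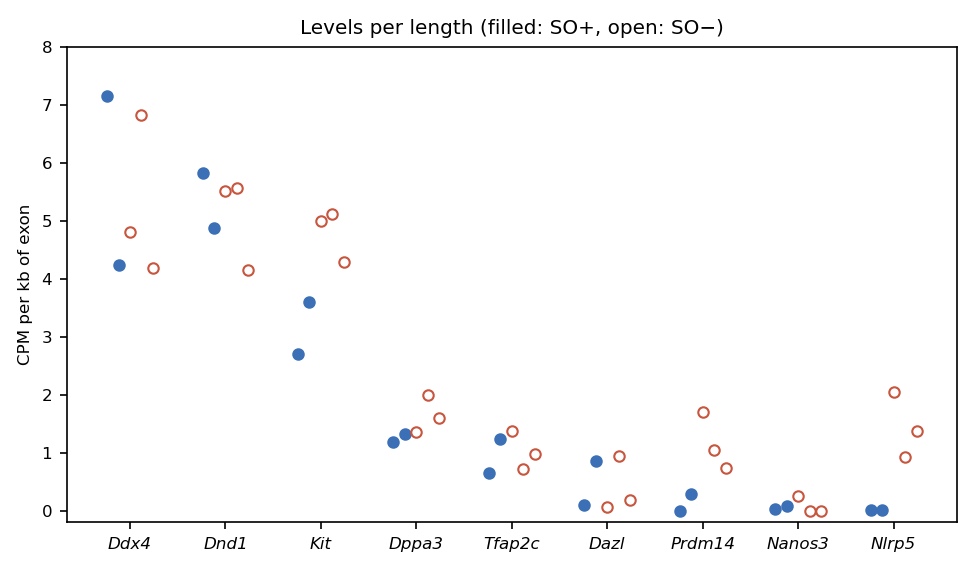
Points give the CPM per kilobase of exon of each gene in each embryo, 2 SO+ (filled) and 3 SO− (open), on a linear scale with genes ordered by their SO+ mean. Ddx4, Dnd1 and Kit lie between 2.70 and 7.16, and the other 6 genes at or below 2.05.

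Genes whose pattern over the 5 embryos was nearest were found by the root mean squared difference of log2(CPM + 1), centred on each gene's mean, among 12066 other tested genes. For Kit, the most abundant of the 9 in CPM, these were Actn1 (0.0251), Nt5m (0.0295) and Eogt (0.0469). Actn1 had 61.7 and 84.2 CPM in the SO+ pair against 110.5, 118 and 98.1 CPM in SO− embryos. For Prdm14 they were Kctd12b (0.125), Ccl20 (0.150) and Eif2ak2 (0.153). Kctd12b had 2.94 and 5.58 CPM in the SO+ pair against 19.6, 12.5 and 12.6 CPM in SO− embryos.

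To set the 9 genes among others of the germ line, 6 lists of 102 genes in all were written by role, the 9 included. Of these, 52 had enough counts to be fitted and 50 did not. Of the 45 fitted that are not among the 9, edgeR gave 4 an adjusted p under 0.05 (8.89%, against 2.35% of all genes tested). Prdm1, Ifitm3 and Tdrd5 were higher in SO− embryos, as were 1.42% of all genes tested, and Cxcl12 was lower, as were 0.928%. The 9 are left out of this count because the contrast chose them. The median log2 fold change of the 45 was 0.04, beside −0.00187 over all genes tested, and 23 of the 45 were higher on average in SO− embryos. Because the lists were written with earlier results on these embryos known, the share is a description.

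Of the 3 specification factors, Prdm1 rose and the other two, Prdm14 and Tfap2c, are described above. Prdm1 (Blimp1) represses the somatic programme in nascent PGCs and is also expressed in the VE. It had 6.06 and 7.84 CPM in the SO+ pair against 38.5, 43.9 and 21.2 CPM in SO− embryos (log2 fold change 2.27, standard error 0.31, adjusted p = 0.00201 from edgeR). With each embryo left out the adjusted p ran from 4.71e-05 to 0.0820, and the call was lost without SO− embryo 1 and without SO− embryo 2. In SO− embryo 3, Prdm1 lay between the SO+ pair and the other SO− embryos. The VE sum of that embryo, 2961 CPM, was the lowest of all embryos. Its ExE sum, 29.4 CPM, was close to the 30.2 CPM of SO− embryo 1. These values come from SO− embryo 3 alone, and the part of VE or ExE content in the rise of Prdm1 was not tested.

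Of the 12 genes for the signals that induce PGCs and their transducers, 9 were higher and 3 lower in SO− embryos. Of the 12, 0 passed in edgeR, DESeq2 or limma-voom. In edgeR 3 had an unadjusted p under 0.05, beside 1656 of all 12067 genes tested. Groups did not overlap for Bmp4 and Bmpr1b, as for 29.5% of all genes tested. Bmp4 had 4.43 and 3.85 CPM in SO+ against 10.6, 16.1 and 5.25 CPM in SO− embryos (log2 fold change 1.27). Bmpr1b had 4.14 and 3.81 CPM in SO+ against 1.94, 0.895 and 0.954 CPM in SO− embryos (log2 fold change −1.54). The BMP receptor gene Bmpr1a had 62.8 ± 12.7 CPM (SD, n = 2) in SO+ and 68.0 ± 9.39 CPM (SD, n = 3) in SO− embryos. Smad1, a transducer of BMP, had 47.4 ± 2.81 CPM and 62.2 ± 13 CPM, and T, the primitive streak factor that acts upstream of the PGC genes, had 37.1 ± 2.25 CPM and 57.0 ± 24.9 CPM. For T, SO− embryo 3 (32.9 CPM) was below both SO+ embryos and SO− embryo 1 (82.7 CPM) above them.

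Of the 22 early PGC genes, 14 were tested, 5 of them higher and 9 lower on average in SO− embryos, and Ifitm3 alone passed. Ifitm3 (Fragilis) is a membrane protein of PGC precursors that interferon also induces. It had 11.9 and 19.9 CPM in the SO+ pair against 54.2, 63.5 and 31.0 CPM in SO− embryos (log2 fold change 1.60, standard error 0.30, adjusted p = 0.0134 from edgeR), and the adjusted p ran from 7.64e-05 to 0.215 with each embryo left out, the call being lost without SO− embryo 1 or 2. With limma-voom it was 0.10. Its neighbour in the family, Ifitm2, had 92.9 ± 22.7 CPM (SD, n = 2) and 84.4 ± 6.80 CPM (SD, n = 3). Ifitm1 had 5.81 and 14.1 CPM in SO+ against 21.5, 22.4 and 20.8 CPM in SO− embryos. Its groups did not overlap, and it did not pass (log2 fold change 1.11, adjusted p = 0.153 from edgeR). The most abundant gene of the list was Prmt5, an arginine methyltransferase, with 329.5 ± 33.1 CPM and 328 ± 14.8 CPM, and Dppa5a had 58.8 ± 17.5 CPM and 54.2 ± 22.2 CPM.

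Among 3 ligands, Cxcl12 fell. It encodes the chemokine that guides migrating PGCs through the receptor Cxcr4 and is made by many tissues. Its levels were 160 and 86.3 CPM in the SO+ pair against 25.9, 20.6 and 26.2 CPM in SO− embryos (log2 fold change −2.29, standard error 0.24, adjusted p = 2.71e-04 from edgeR). It kept an adjusted p of at most 0.0461 with each embryo left out, but had 0.136 with limma-voom. Cxcr4 had 2.40 and 2.63 CPM in SO+ against 6.53, 2.68 and 5.01 CPM in SO− embryos (adjusted p = 0.446 from edgeR). Lif had 2 and 9 counts in SO+ against 0 in every SO− embryo, too few for a test.

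Of 34 later germ cell and germline genes, 17 were tested, 7 of them higher and 10 lower on average in SO− embryos, and Tdrd5 passed. Tdrd5 encodes a tudor domain protein of germ granules. It had 6.36 and 5.69 CPM in the SO+ pair against 28.3, 17.9 and 15.8 CPM in SO− embryos (log2 fold change 1.80, standard error 0.33, adjusted p = 0.0116 from edgeR), and the adjusted p ran from 0.0089 to 0.185 with each embryo left out, the call being lost without SO− embryo 1 or 2. Syce2, a component of the synaptonemal complex of meiosis, was the most abundant, with 103 ± 11.1 CPM (SD, n = 2) and 51.7 ± 20.5 CPM (SD, n = 3), with a log2 fold change of −0.92 close to the threshold (adjusted p = 0.0533 from edgeR). It passed with DESeq2 (adjusted p = 0.00666), without the filter on low counts (0.0268), without SO+ embryo 2 (0.00532) and without SO− embryo 3 (0.00807), and reached 0.386 without SO− embryo 1. Other oocyte and maternal effect genes were mostly too low to test. Of the 28 on the list, 12 had 0 counts in all 5 embryos and 24 were too low for the fit. Beside Nlrp5, those fitted were Ooep, Tle6 and Nlrp14, of which 0 passed in edgeR, DESeq2 or limma-voom and 0 had an unadjusted p under 0.05 in edgeR.

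**Figure D5:**
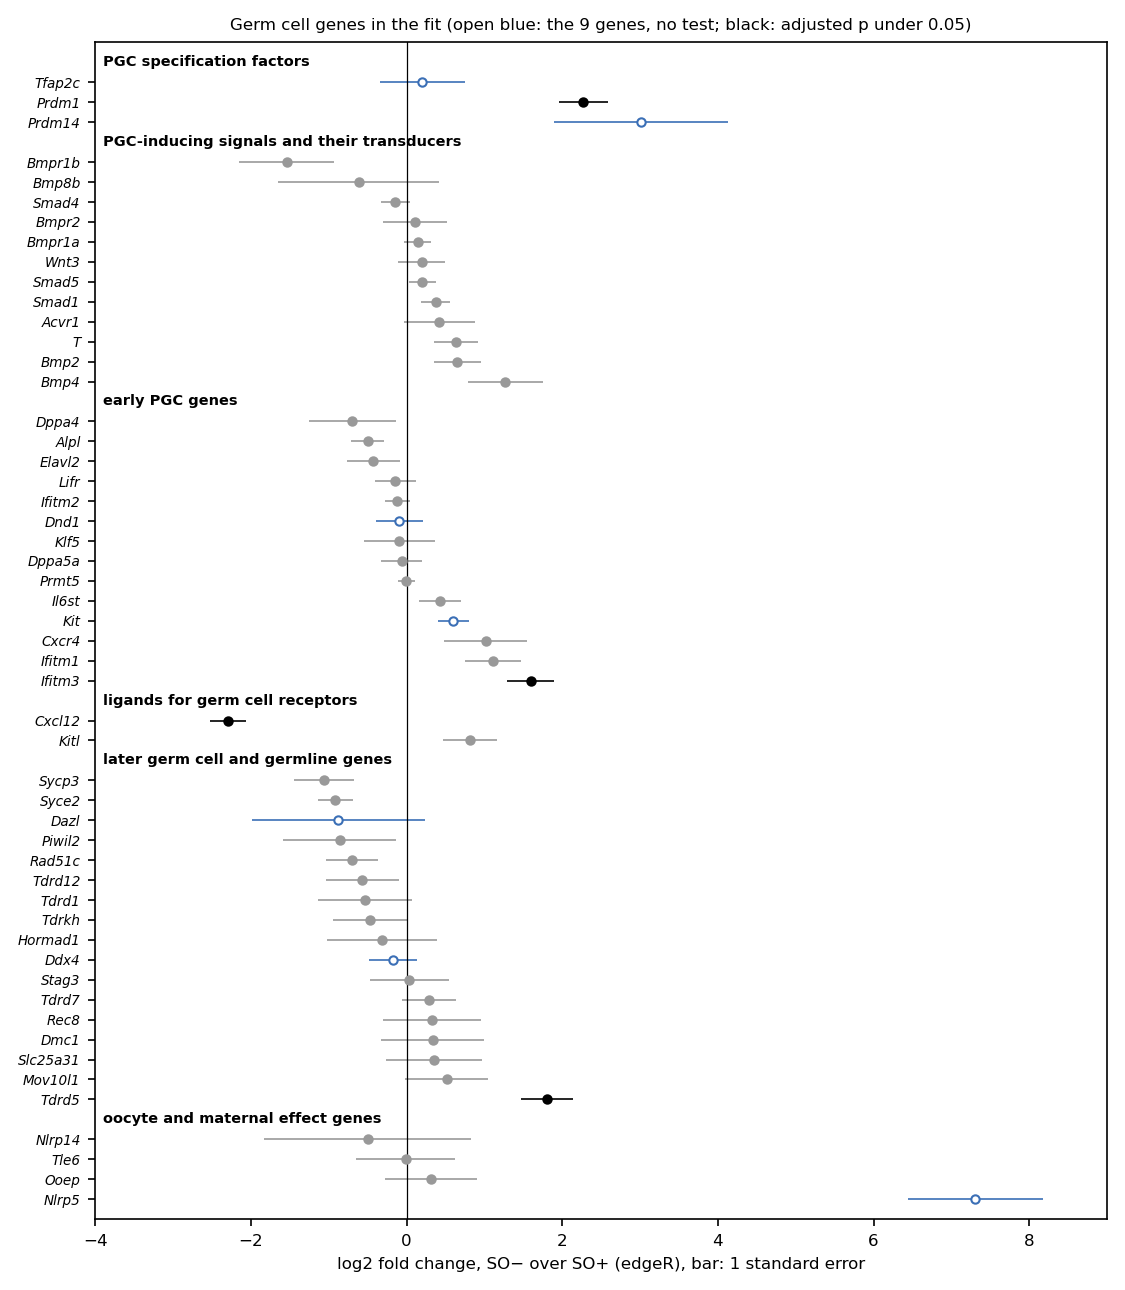
Points give the log2 fold change of SO− over SO+ for the 52 fitted germ cell genes, grouped by list, with bars of 1 standard error. Open blue points are those of the 9 genes, given without a test, and the 4 black points, with an adjusted p under 0.05 from edgeR, are Prdm1, Ifitm3 and Tdrd5 to the right of 0 and Cxcl12 to the left.

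Of the 12 epiblast markers, 4 were lower in SO− embryos by the test (Utf1, L1td1, Slc7a3 and Dnmt3b) and 0 higher, with Utf1 at −2.08 (adjusted p = 4.06e-04 from edgeR). L1td1 was at −1.84 (adjusted p = 1.25e-04 from edgeR) and Slc7a3 at −1.64 (adjusted p = 0.00343 from edgeR, and 0.0857 without SO− embryo 1). Dnmt3b, a de novo DNA methyltransferase, had 3623 ± 509 CPM (SD, n = 2) in SO+ and fell to 1813 ± 429 CPM (SD, n = 3) in SO− embryos (log2 fold change −0.99, standard error 0.15, adjusted p = 0.00392 from edgeR), and the adjusted p ran from 1.59e-06 to 0.122 with each embryo left out, the call being lost without SO− embryo 1 or 2. The other 8 did not pass, among them Cdh1, the second most abundant, at −0.09 (adjusted p = 0.844 from edgeR). Sox2 (log2 fold change 0.56) and Fgf5 (0.38) were higher on average, while Lin28a (0.06) and Nanog (0.02) were nearly level. Of these, Fgf5, Lin28a and Nanog overlapped between genotypes. Of the 12 VE markers 0 passed in edgeR, DESeq2 or limma-voom, and 11 were higher on average in SO− embryos. In edgeR 6 of the 12 had an unadjusted p under 0.05, beside 1656 of all 12067 genes tested. The most abundant VE markers were Apoa1 (log2 fold change 0.42) and Dab2 (0.39). Among the ExE markers Hand1 had 1.91 ± 1.16 CPM (SD, n = 2) in SO+ and rose in SO− embryos to 16.5 ± 6.64 CPM (SD, n = 3) (log2 fold change 3.04, standard error 0.52, adjusted p = 0.00754 from edgeR). With each embryo left out its adjusted p ran from 1.08e-04 to 0.128, the call being lost without SO− embryo 1 or 2. Gata3 had 0.726 and 1.18 CPM in SO+ against 2.66, 10.7 and 3.82 CPM in SO− embryos (adjusted p = 0.148 from edgeR), and Cdx2, Ascl2, Rhox6, Elf5 and Sox21 overlapped between genotypes. Hand1 also marks extra-embryonic mesoderm. The part of tissue content in the values of the germ cell genes was not tested.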

How the data were processed

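RNA of 5 mouse embryos (2 SO+, 3 SO−) had been amplified with SmartSeq2. Per the labels, the authors aligned reads with STAR and counted them per gene with HTSeq on GRCm38, and deposited raw read counts. Versions of these tools and the use of strand are not given in the labels. Each library is a separate embryo. CPM were computed on library totals.

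All 12067 genes that passed filterByExpr were fitted with edgeR 4.0.16 in R 4.3.3 (TMM scaling, quasi-likelihood test, Benjamini-Hochberg adjustment, threshold 0.05). Alternatives were DESeq2 1.42.0, limma-voom (limma 3.58.1), other scalings and filters, a replicate block, and each embryo left out. The fit was tested on simulated data. Counting intervals are exact at 95%, and 3 counts were taken as the floor. Exon lengths came from the GENCODE annotation of GRCm38. An exact permutation test of 2 embryos against 3 cannot go below p = 0.1, so none is given for single genes.

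The 9 genes, the lists and the markers were chosen with earlier results of these data known. Genes named beside the 9 were Pou5f1, every called gene of a list, the 3 most abundant genes of each of the 6 germ cell lists (2 in each of the 4 marker lists), and the 3 genes most like Kit and Prdm14. Bmp4, Bmpr1b, Cxcr4, Ifitm1, Khdc3, Nlrp14, Elf5, Gata3, other markers without a call, Wdr55, the Nlrp genes and neighbours were added after values were seen. Same-numbered embryos are different animals and were not paired.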

Additional observations from a re-analysis of the deposited data

How the results depend on the processing

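Fold changes of the tested genes among the 9 kept their direction in 74 of 81 values over all alternatives; the exceptions were in Tfap2c, Dnd1, Ddx4 and Dazl. Of all genes, 283 were called, with 91 under limma-voom and 35 to 573 with each embryo left out, lowest without SO− embryo 2 and highest without SO+ embryo 2. Of the germ cell lists, 5 genes had an adjusted p under 0.05, Nlrp5 included, with 3 under limma-voom and 2 to 10 with each embryo left out, lowest without SO− embryo 1 or 2. Of the 9 genes, 4 had a log2 fold change above 0, and 2 when 10 counts in 3 embryos were required, since only 4 of them were then tested. The cause of the other changes was not tested. With the embryo number as a replicate block, 929 genes were called. Among them were 15 germ cell list genes, a number that includes Prdm14, Kit and Nlrp5, which the contrast chose. Same-numbered embryos are different animals and their deviations correlated at −0.00854 and 0.122, so this pairing has no basis in the design. Depth limits Nanos3, Dppa3, Dazl and Prdm14 most, since SO− libraries held 0 to 18 counts of each.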
